A study of Mus musculus with 75 samples.

Results

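The 9 genes described here encode transcription factors that are known from supporting cells (SCs) or their precursors in the inner ear: Sox2, Sox9, Sox10, Sox21, Sox4, Sox11, Prox1, Rorb and Zbtb20. They were chosen by name and are 9 of the 55291 genes in the deposited count table. Their values come from 75 cells of the mouse cochlea, each picked by hand for its Tdtomato fluorescence and sequenced as a library of its own. The 17 WT_P30 OHCs (wild-type outer hair cells) came from Slc26a5CreER/+; Ai9/+ mice, whose Cre is active in OHCs, after tamoxifen at P20 and P21, and were picked at P30. The 16 WT_P60 SCs came from Fgfr3-iCreER+; Ai9/+ mice after tamoxifen at P30 and P31, and were picked at P60. The remaining 42 cells, called induced cells here, carried Fgfr3-iCreER+ and the inducible transgene CAG-LSL-Atoh1+, together with the alleles Rosa26 CAG-LSL-Ikzf2/+ and Slc26a5 DTR/+. Tamoxifen, again given at P30 and P31, switched on the hair cell factors Atoh1 and Ikzf2 in SCs, diphtheria toxin at P36 killed OHCs, and cells were picked at P60. The authors split them by their Myo7a and Slc26a5 (Prestin) reads into 11 cells named OHC-like, 16 named nascent HCs and 15 named SCs failing to become HCs (failing SCs in what follows), so these groups were defined from the same libraries. In these counts, 1 CPM (a read count scaled to library size) or more of Slc26a5 was found in 11 of 11 OHC-like cells, 3 of 16 nascent HCs and 1 of 15 failing SCs, and as much of Myo7a in 11, 16 and 3 cells of these groups. Fgfr3-iCreER marks mainly pillar and Deiters cells, and those subtypes were not separated.

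Sox proteins bind DNA through an HMG box. Sox2 specifies the prosensory domain of the cochlea and persists in SCs. Sox9 and Sox10, both of the SoxE subgroup, act in the otic epithelium, and Sox10 is also a factor of glia and melanocytes. Sox21 is a SoxB2 factor, while Sox4 and Sox11 are SoxC factors known from immature progenitors and neurons. Prox1 is a homeodomain protein of developing pillar and Deiters cells. Rorb is an orphan nuclear receptor and Zbtb20 a zinc finger repressor. Whether cells driven toward a hair cell fate keep or lose such factors is the question asked here.

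The 6 Sox members share the HMG box, and reads from so similar a stretch are those that could be placed on the wrong gene. The 60 coding bases below lie within the box of each gene, and capitals mark the 35 positions at which all 6 genes have the same base.
Sox2: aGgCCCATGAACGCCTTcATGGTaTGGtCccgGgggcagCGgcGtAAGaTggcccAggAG
Sox21: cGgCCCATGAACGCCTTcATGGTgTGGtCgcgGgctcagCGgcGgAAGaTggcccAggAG
Sox9: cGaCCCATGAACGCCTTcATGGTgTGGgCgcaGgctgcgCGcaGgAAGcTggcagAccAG
Sox10: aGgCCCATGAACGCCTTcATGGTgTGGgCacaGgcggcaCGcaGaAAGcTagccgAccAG
Sox4: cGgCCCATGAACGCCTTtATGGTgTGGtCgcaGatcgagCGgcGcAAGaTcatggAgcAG
Sox11: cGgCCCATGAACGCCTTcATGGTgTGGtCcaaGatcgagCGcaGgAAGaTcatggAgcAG

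These stretches lie in GRCm38 at chr3:34650548-34650607 for Sox2 (+ strand, exon 1), chr14:118235549-118235608 for Sox21 (- strand, exon 1) and chr11:112782903-112782962 for Sox9 (+ strand, exon 1). Those of Sox10 are at chr15:79163342-79163401 (- strand, exon 3 of the transcript used), of Sox4 at chr13:28952782-28952841 (- strand, exon 1) and of Sox11 at chr12:27342199-27342258 (- strand, exon 1). Over the 60 bases, the 15 pairs of genes matched at 42 to 54 positions, with 54 for Sox2 and Sox21 and 54 for Sox4 and Sox11. Sox9 and Sox10 matched at 52. Over whole GENCODE M21 transcripts, the longest run of bases that 2 members shared was 48, in Sox4 and Sox11, followed by 44 in Sox9 and Sox10. In the counts, Sox11 had 0 in the 15 failing SCs, in which Sox4 had 8505. The 2 nascent HCs in which Sox11 was detected, cells 11 and 15, had the highest Sox4 levels of their group, 113 and 435 CPM. Whether reads were placed on the wrong gene was not tested.

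Rows of the table can also share reads with overlapping genes, because the strand setting of the counting is not given in the sources used here. A lincRNA on the opposite strand, Gm26735, covers 54.6% of the exon length of Sox4, and Gm4675 covers 18.8% of that of Sox21. The antisense transcript Prox1os covers 1.6% of Prox1. Sox2 lies inside an intron of the host transcript Sox2ot on the same strand and shares 0 exon bases with it. Gm26735 has no row in the count table, whereas Gm4675 has one, with 1574 counts. Values of Sox4 may therefore hold reads of either strand at the locus. How reads over the bases that Sox21 shares with Gm4675 were counted is not known.

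The total count per cell ran from 4264780 to 22934062, and the median per group from 5967735 in WT_P30 OHCs to 11377685.5 in nascent HCs. Counts are reads, since the libraries lack molecular identifiers, and intervals cover counting error only. The labels give each library a code, and the codes were grouped here into blocks of neighbouring numbers, which the labels do not explain. All WT_P30 OHCs were in 1 block and all WT_P60 SCs in another. Block, age and Cre line therefore cannot be told apart from cell type in the wild-type cells. The induced cells were spread over 5 other blocks, called A to E here. From A through D the numbers run on with no gap at the limits, so the numbers alone do not set those blocks. The number of mice is not named, and p-values measure the spread between cells. The labelled types carried their markers: all 6 OHC markers (Slc26a5, Ocm, Myo7a, Espn, Tmc1, Lmo7) were found in every WT_P30 OHC and none at 1 CPM in any WT_P60 SC, while all 7 SC markers were found in all 16 WT_P60 SCs. S100a1 and Tuba1b of that SC list were also found in 17 and 12 of the 17 WT_P30 OHCs.

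Levels are given as CPM scaled by TMM factors, with 1 CPM or more taken as detection. Differences were tested with edgeR's quasi-likelihood F-test in a fit of all 5 groups, and calls required a Benjamini-Hochberg adjusted p below 0.001 with an absolute log2 fold change above 2. Of the 9 members, 8 passed the filter on low counts, and Sox11 did not.

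**Figure D1:**
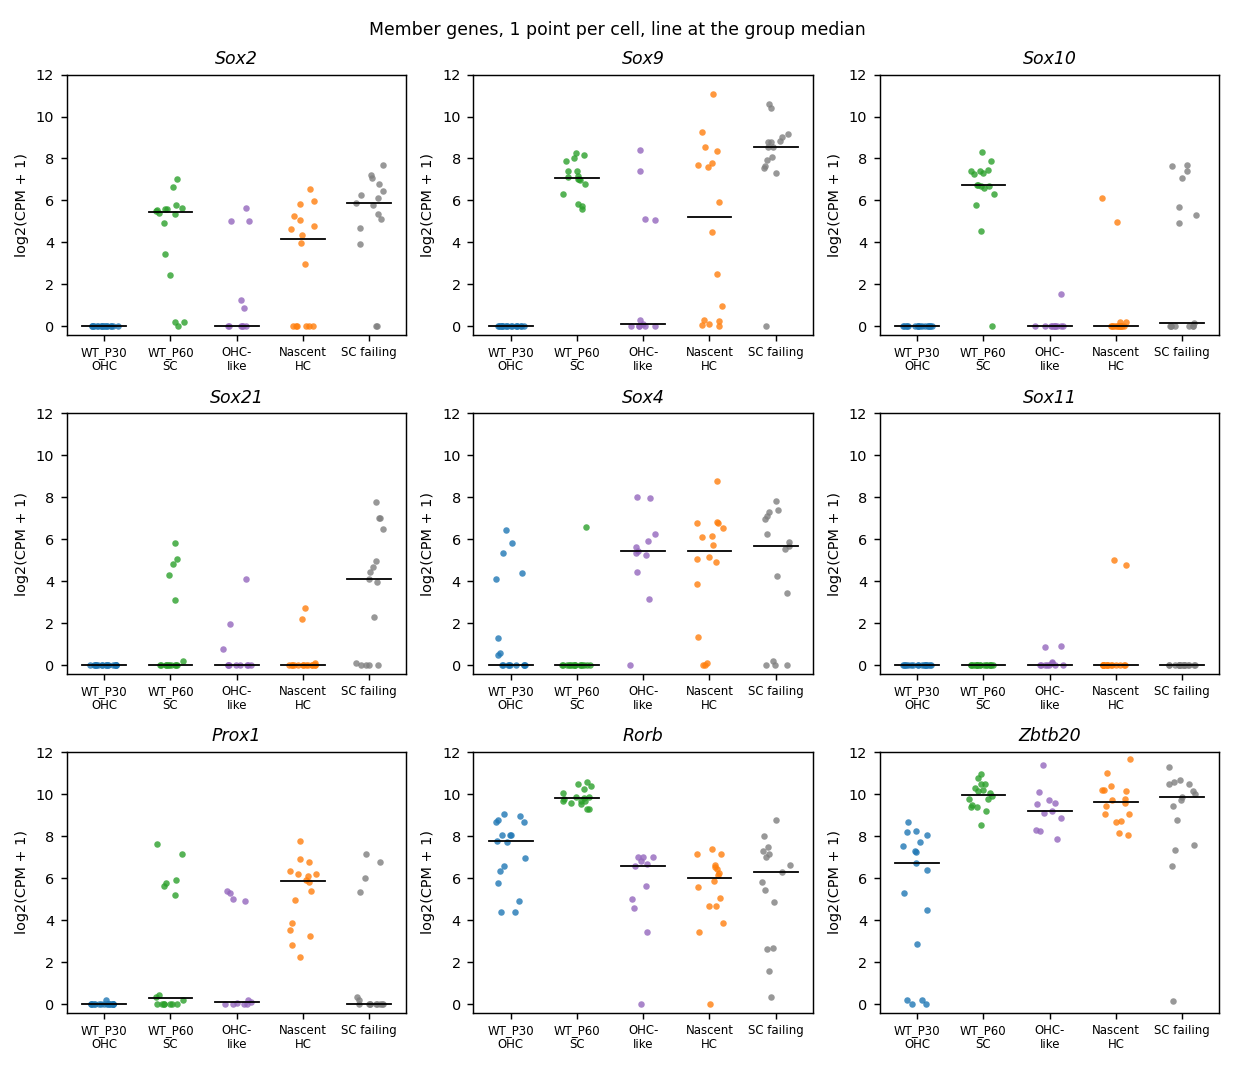
Levels of the 9 members in single cells, with log2(CPM + 1) on the vertical axis, the 5 groups on the horizontal axis, 1 point per cell and a line at the group median. Sox2, Sox9, Sox10 and Sox21 lie at 0 in all 17 WT_P30 OHCs, Sox4 is detected in 1 of 16 WT_P60 SCs, and Rorb in every induced cell lies below every WT_P60 SC.

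Between the wild-type cells, 6 of the 8 members tested were lower in WT_P30 OHCs than in WT_P60 SCs and 0 were higher. Over all 11443 genes tested, 10.3% were called lower and 4.96% higher. The fitted median log2 fold change of the members was -9.87, or -5.41 with the 4 genes that had a group at 0 counts set to their bound, against -0.16 over all genes. Sox2, Sox9, Sox10 and Sox21 had 0 counts in all 17 WT_P30 OHCs, which allows a share of detecting cells of up to 19.5% (exact binomial 95% interval). Sox2, Sox10 and Rorb are among the genes that the study lists as enriched in these same SCs, so their direction is not independent evidence.

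Sox9 was the Sox member found in every WT_P60 SC. It ran from 47.8 to 302 CPM with a median of 134 and a mean of 151 ± 80.6 (SD, n = 16), against 0 in every WT_P30 OHC, so the groups did not overlap. Set against a floor of 3 counts per library, this is at least 341-fold higher in WT_P60 SCs (edgeR adjusted p = 3.02e-09). Sox10 was detected in 15 of 16 WT_P60 SCs, at 0 to 317 CPM with a median of 104, at least 286-fold higher than in WT_P30 OHCs (edgeR adjusted p = 8.46e-07). The cell without Sox10 counts, WT_P60 SC 13, had the highest Sox2 level of its group, 130.2 CPM.

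Sox2 was detected in 13 of 16 WT_P60 SCs. Its levels ran from 0 to 130.2 CPM with a median of 42.7, at least 90.3-fold higher in the mean than in WT_P30 OHCs (edgeR adjusted p = 1.84e-07). Sox21 was sparser, with 5 of 16 WT_P60 SCs between 7.535 and 55.8 CPM and the others under 1 CPM. Its mean was at least 20.0-fold higher than in WT_P30 OHCs (edgeR adjusted p = 8.3e-05), or at least 13.0-fold without WT_P60 SC 6, but this call was lost with limma-trend, with the number of genes detected as a covariate and with a replicate block. Prox1 was detected in 6 of 16 WT_P60 SCs, at 35.5 to 196 CPM, and 1 read in all was counted in the 17 WT_P30 OHCs. The ratio of pooled CPM was 4059 (95% counting interval 728 to 160346; edgeR adjusted p = 2.67e-06), and the call was lost with limma-trend and with the covariate. That ratio rests on a single OHC read and cannot be set beside the bounds of the Sox members.

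Rorb and Zbtb20 were present in both wild-type types, at different levels. Rorb ran from 631 to 1540.1 CPM in WT_P60 SCs (median 890.02, mean 968 ± 275, SD, n = 16) and from 19.9 to 527 CPM in WT_P30 OHCs (median 221, mean 231 ± 173, SD, n = 17). These ranges did not overlap, and the mean was 4.20-fold higher in SCs, but the fitted log2 fold change of -2.07 ± 0.58 (SE) in OHCs relative to SCs had an edgeR adjusted p of 0.00363 and was not called. It was called with DESeq2 and in a fit of only these groups. Zbtb20 was detected in 16 of 16 WT_P60 SCs and 13 of 17 WT_P30 OHCs, with medians of 1013 and 105 CPM. It fell by 3.02 ± 0.64 (SE) on the log2 scale in OHCs (edgeR adjusted p = 9.97e-05), and this call was lost in a fit of only these groups. The WT_P60 SC with the least Zbtb20 had 366 CPM, which 1 WT_P30 OHC exceeded.

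Sox4 stood the other way round. It was detected in 6 of 17 WT_P30 OHCs, at 1.45 to 86.8 CPM, and in 1 of 16 WT_P60 SCs, cell 8, at 94.8 CPM. Its log2 fold change in OHCs relative to SCs was 1.13 ± 1.30 (SE, edgeR adjusted p = 0.646). Sox11 had 0 counts in both wild-type groups, which allows a share of up to 19.5% of OHCs and 20.6% of SCs (exact binomial 95% interval).

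Levels of different genes were compared per exon length, as TPM, in which counts are divided by exon length before scaling to a fixed total. By the mean in WT_P60 SCs, Rorb was first with 237 TPM, ahead of Sox10 with 113, Sox9 with 99.9, Zbtb20 with 92.8 and Sox2 with 53.2. Prox1 with 10.9, Sox21 with 6.14 and Sox4 with 3.63 followed. Zbtb20 has the longest exon union of the 9 members, 30730 bases, so it stood lower per length than in CPM.

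**Figure D2:**
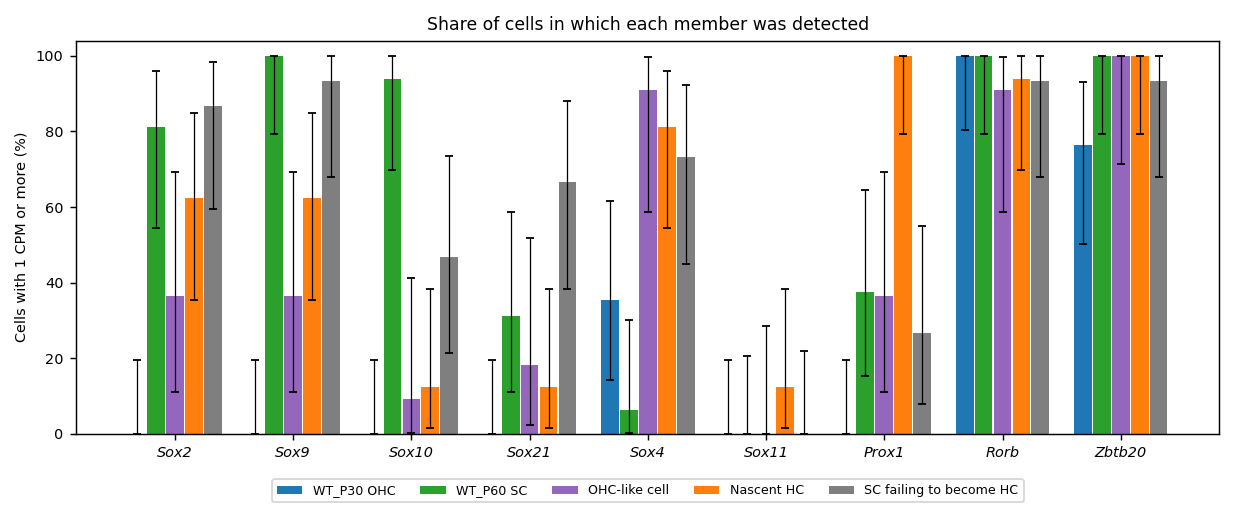
Share of cells in percent (vertical axis) with 1 CPM or more of each member (horizontal axis) in the 5 groups, with exact binomial 95% intervals that cover counting error only. Prox1 was detected in 16 of 16 nascent HCs against 4 of 15 failing SCs, and Sox10 in 15 of 16 WT_P60 SCs against 1 of 11 OHC-like cells.

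The next question was which members differed between induced cells and WT_P60 SCs. The induced cells derive from SCs of other mice, with another genotype and diphtheria toxin, and lie in other blocks of library codes. Genotype, toxin and block therefore cannot be told apart in these comparisons. The same holds against WT_P30 OHCs, where age differs too. Rorb was called lower in OHC-like cells, in nascent HCs and in failing SCs, and in each of these comparisons it was 1 of 8 members called, with 0 called higher. Over all genes, 0.655% were called lower and 5.77% higher in OHC-like cells, 1.46% and 6.31% in nascent HCs, and 0.787% and 3.38% in failing SCs. The median log2 fold change of the 8 members was -1.74, -0.44 and 0.32 in these comparisons, against 0.32, 0.34 and 0.25 over all genes. These comparisons share the WT_P60 SCs, so their values are given side by side and not as independent evidence.

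Rorb ran from 0 to 129.5 CPM in OHC-like cells (median 93.9), from 0 to 166 CPM in nascent HCs (median 63.1) and from 0.286 to 433 CPM in failing SCs (median 76.5). The lowest WT_P60 SC had 631 CPM, so none of the 42 induced cells reached the range of that group. The mean was 13.3-fold, 14.4-fold and 9.05-fold lower than in WT_P60 SCs. Fitted log2 fold changes were -3.73 ± 0.75 (SE, edgeR adjusted p = 0.000102), -3.84 ± 0.64 (SE, edgeR adjusted p = 3.61e-06) and -3.18 ± 0.64 (SE, edgeR adjusted p = 0.000181). Rorb was called in all 3 comparisons under every alternative run for them. The study, from these same libraries, also names Rorb among the SC genes that were lower in OHC-like cells, so that call is not independent of it. The Rorb transcript was still found: 39 of the 42 induced cells had 1 CPM or more.

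Sox4 was detected in 10 of 11 OHC-like cells, 13 of 16 nascent HCs and 11 of 15 failing SCs, with medians of 42.5, 43.4 and 49.8 CPM. In OHC-like cells the range was 0 to 255 CPM, in nascent HCs 0 to 435 CPM, and in failing SCs 0 to 226 CPM. The mean was 12.8-fold, 12.2-fold and 12.0-fold that of WT_P60 SCs. Log2 fold changes were 3.68 ± 1.50, 3.61 ± 1.44 and 3.58 ± 1.45 (SE), with edgeR adjusted p of 0.103, 0.091 and 0.126, so none was called.

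The comparison of Sox4 turned on a single wild-type cell. WT_P60 SC 8 held all 695 Sox4 reads of its group. Without it, Sox4 was called higher in all 3 induced groups, with edgeR adjusted p of 9.65e-07, 7.84e-07 and 1.74e-06, and against a floor of 3 counts per library in the other 15 cells the mean was at least 181-fold, 172-fold and 169-fold higher. Sox4 was then also called higher in WT_P30 OHCs (edgeR adjusted p = 5.18e-06). With all cells kept, limma-trend on log2 CPM also called Sox4 higher in the 3 induced groups. The 3 induced groups themselves had Sox4 means of 76.0, 72.5 and 71.3 CPM.

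Sox11, the other SoxC member, was detected in 2 nascent HCs, cell 11 with 31.2 CPM and cell 15 with 26.4 CPM. In OHC-like cells 4 held 12 reads between them, each under 1 CPM, and failing SCs had 0 counts, which allows a share of up to 21.8% (exact binomial 95% interval). Of 5 neuron markers, Rbfox3 was detected in 6 of 16 nascent HCs, Tubb3 in 5, Nefm in 1, and Nefl and Prph in 0. Their summed level had a median of 41.3 CPM in that group and was 861 CPM in the highest cell. The part of neuronal RNA in the SoxC levels was not tested.

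**Figure D3:**
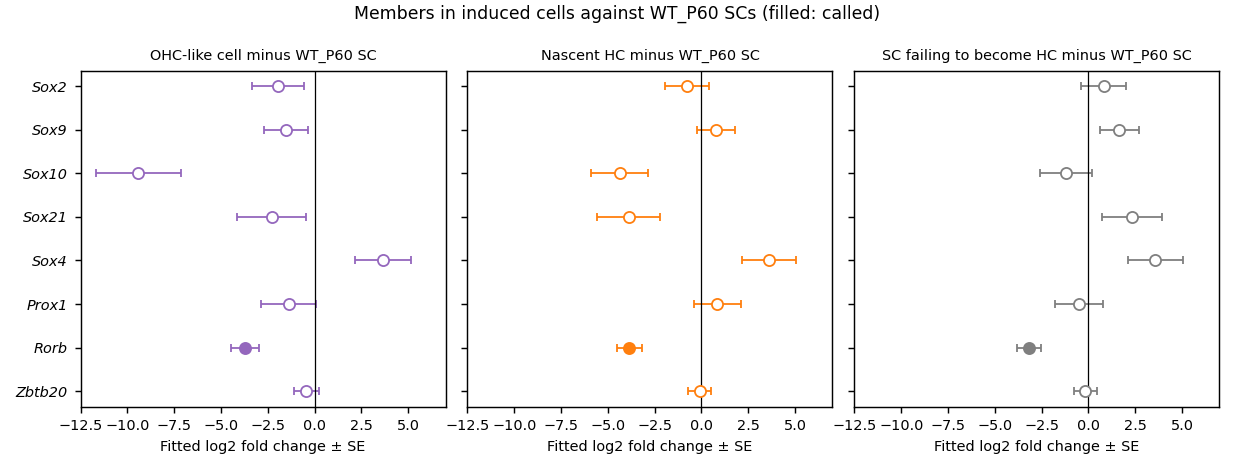
Fitted log2 fold changes with standard errors (horizontal axis) of the 8 members tested (vertical axis) in the 3 induced groups relative to WT_P60 SCs, with filled points for called genes. Rorb is filled in all 3 panels, and Sox10 in OHC-like cells, at -9.42 ± 2.28, lies farthest from 0 without being called.

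Sox10 was the member with the fewest detecting OHC-like cells among those found in most WT_P60 SCs. Of 11 OHC-like cells 1 had it, at 1.93 CPM, and it was detected in 2 of 16 nascent HCs, at 67.7 CPM in cell 9 and 30.9 CPM in cell 10, and in 7 of 15 failing SCs, at 29.8 to 208 CPM. The OHC-like group had 14 Sox10 reads in that cell and 0 in the other 10 cells. The mean in WT_P60 SCs was 20.5-fold that of nascent HCs and 2.29-fold that of failing SCs. Log2 fold changes relative to WT_P60 SCs were -9.42 ± 2.28 (SE, edgeR adjusted p = 0.00152), -4.36 ± 1.52 (SE, edgeR adjusted p = 0.0431) and -1.20 ± 1.37 (SE, edgeR adjusted p = 0.825). The adjusted p in OHC-like cells missed the threshold of 0.001, and DESeq2, limma-trend and the fit of only these groups called it. Without nascent HCs 9 and 10, Sox10 was called lower in nascent HCs (edgeR adjusted p = 1.88e-06) and in OHC-like cells (edgeR adjusted p = 0.000168). It was also called in OHC-like cells without cell 1, the cell with the 14 reads (edgeR adjusted p = 0.000165).

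Markers of the other cells that make Sox10 differed among themselves in the groups that held them. Of 6 glia markers, Pmp22 and Foxd3 reached 1 CPM in none of the 75 cells. Mbp, a myelin gene, was detected in 9 of 11 OHC-like cells and 11 of 16 nascent HCs, in which Sox10 was mostly absent, and had 0 counts in WT_P60 SCs, in which Sox10 was highest. Erbb3, a receptor gene of glia, was detected in 9 WT_P60 SCs and 11 failing SCs, 1 OHC-like cell and 3 nascent HCs. The summed level of the glia list ran from 0 to 124 CPM in WT_P60 SCs, 0 to 172 in OHC-like cells, 0.16 to 145 in nascent HCs and 0.694 to 230.1 in failing SCs. Of 6 melanocyte and stria markers, Tyr was under 1 CPM in every cell, and Pmel, a melanosome gene, was detected in 7 of 16 WT_P60 SCs. Fibroblast genes Dcn and Lum were each detected in 4 of 15 failing SCs, Col1a1 in 1 and Col1a2 in 0. The summed level of this list had a median of 0.214 CPM in failing SCs and was highest in failing SC 14, with 2014 CPM. The part of such markers in the Sox10 levels was not tested.

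Sox9 and Sox2 were kept by some induced cells and not by others. In OHC-like cells Sox9 was detected in 4 of 11, at 32.0 to 340 CPM, and the median was 0.0815 CPM, while 9 of 11 lay below the lowest WT_P60 SC. Nascent HCs detected it in 10 of 16 and ran from 0 to 2124 CPM with a median of 40.9, and 8 lay below and 4 above the range of WT_P60 SCs. Failing SCs detected Sox9 in 14 of 15, with a median of 376 CPM, and 9 of them lay above that range. Log2 fold changes relative to WT_P60 SCs were -1.54 ± 1.17, 0.78 ± 1.01 and 1.65 ± 1.04 (SE), with edgeR adjusted p of 0.559, 0.806 and 0.484. The direction in nascent HCs was not stable: it was -2.95 with limma-trend, -0.59 with the replicate block and -0.17 without nascent HC 13, the cell with 2124 CPM. Limma-trend on log2 CPM called Sox9 lower in OHC-like cells (limma adjusted p = 7.6e-05).

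Sox2 was detected in 4 of 11 OHC-like cells, 10 of 16 nascent HCs and 13 of 15 failing SCs, with medians of 0, 17.3 and 57.8 CPM, against 42.7 CPM in WT_P60 SCs. The highest values were 49.1, 91.0 and 207 CPM, so all 3 groups overlapped WT_P60 SCs. Its log2 fold changes were -1.94 ± 1.38, -0.79 ± 1.17 and 0.81 ± 1.19 (SE), with edgeR adjusted p of 0.516, 0.84 and 0.887. Sox21 was detected in 2 of 11 OHC-like cells and 2 of 16 nascent HCs, at 16.3 CPM at most, and in 10 of 15 failing SCs, at up to 219 CPM. Its log2 fold changes relative to WT_P60 SCs were -2.29 ± 1.84, -3.90 ± 1.70 and 2.34 ± 1.61 (SE), with edgeR adjusted p of 0.596, 0.142 and 0.558.

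Like Zbtb20, Prox1 was found in every nascent HC. It ran from 3.75 to 214 CPM in the 16 nascent HCs, with a median of 57.7, whereas it was detected in 4 of 11 OHC-like cells (29.0 to 41.4 CPM), 4 of 15 failing SCs (39.1 to 139.9 CPM) and 6 of 16 WT_P60 SCs. The share detected in nascent HCs, 100%, had a 95% interval of 79.4% to 100%, and that in failing SCs, 26.7%, one of 7.79% to 55.1%. Mean levels of 59.95 ± 54.5 CPM in nascent HCs and 33.4 ± 57.9 CPM in WT_P60 SCs (SD) gave a log2 fold change of 0.84 ± 1.26 (SE, edgeR adjusted p = 0.842). For OHC-like cells and failing SCs, relative to WT_P60 SCs, it was -1.39 ± 1.46 and -0.52 ± 1.28 (SE), with edgeR adjusted p of 0.733 and 0.953.

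Zbtb20 stayed in most induced cells at levels within the WT_P60 SC range. It was detected in all OHC-like cells and nascent HCs and in 14 of 15 failing SCs, with medians of 584, 803 and 947 CPM. Log2 fold changes relative to WT_P60 SCs were -0.45 ± 0.68, -0.10 ± 0.60 and -0.18 ± 0.61 (SE), with edgeR adjusted p of 0.855, 0.977 and 0.968. The lowest induced cell was failing SC 6, with 0.125 CPM.

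OHC-like cells were then compared with the WT_P30 OHCs. The OHC-like group was defined by the presence of Slc26a5 (Prestin) reads, and Slc26a5 itself was called lower there than in WT_P30 OHCs. Sox2, Sox9, Sox21 and Prox1 were called higher in OHC-like cells, 4 of 8 members, and 0 lower. Over all genes, 10.0% were called higher and 0.577% lower. The median log2 fold change of the members was 5.34 as fitted, or 2.57 with genes against a group at 0 counts set to their bound (Sox10 gave no bound and was left out), against 0.61 over all genes. Sox9 was at least 117-fold higher (edgeR adjusted p = 5.1e-08), or at least 52.4-fold without OHC-like cell 1. Sox2 was at least 23.5-fold higher (edgeR adjusted p = 3.34e-06), or at least 14.8-fold without OHC-like cell 11. Sox21 was at least 4.08-fold higher (edgeR adjusted p = 0.000924), but without OHC-like cell 9 its mean of 0.362 CPM lay under the floor and the call was lost (edgeR adjusted p = 0.00731). The Prox1 ratio of pooled CPM was 1410.01 (95% counting interval 253 to 55733; edgeR adjusted p = 2.55e-05), again over a single OHC read. Each rested on few cells: 4 of 11 for Sox9, Sox2 and Prox1, and 2 of 11 for Sox21.

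The calls depended on the test. With limma-trend, Sox2, Sox9, Sox21 and Prox1 all lost their call and Zbtb20 gained one, and Sox21 lost it under 8 alternatives in all. DESeq2 called 6 of 8 members higher: Sox2, Sox9, Sox21, Prox1, Zbtb20 and Sox10. Its Sox10 call rested on 14 reads in 1 cell. Zbtb20 ran from 232 to 2671 CPM in OHC-like cells and from 0 to 407 CPM in WT_P30 OHCs, with a log2 fold change of 2.57 ± 0.66 (SE, edgeR adjusted p = 0.00175). It was 5.95-fold higher in the mean, and 8 of the 11 OHC-like cells lay above every WT_P30 OHC. Rorb and Sox10 had log2 fold changes of -1.66 ± 0.67 and 3.69 ± 1.32 (SE), with edgeR adjusted p of 0.0719 and 0.0368. That of Sox4 was 2.54 ± 1.42 (SE, edgeR adjusted p = 0.263).

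For the other induced groups relative to WT_P30 OHCs, 5 members were called higher in nascent HCs (Sox2, Sox9, Sox10, Prox1 and Zbtb20) and 6 in failing SCs (these and Sox21), with 0 lower. The Sox10 call in nascent HCs rested on cells 9 and 10, with 4 reads in the other 14 cells. Sox10 was at least 13.9-fold higher there, or at least 4.69-fold without cell 9. DESeq2 also called it and limma-trend did not. Over all genes, 11.8% were called higher and 1.42% lower in nascent HCs, and 12.2% and 2.53% in failing SCs. Sox9 was at least 584-fold and 1073-fold higher than in WT_P30 OHCs, with at least 303-fold in nascent HCs without cell 13, and Sox2 at least 52.2-fold and 158-fold. Rorb, by contrast, had a log2 fold change of -1.77 ± 0.59 (SE, edgeR adjusted p = 0.0175) in nascent HCs and -1.11 ± 0.59 (SE, edgeR adjusted p = 0.188) in failing SCs.

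Within the induced cells, 0 of 8 members were called between OHC-like cells and failing SCs, and 0 between nascent HCs and failing SCs. At an unadjusted p under 0.05, 3 members (Sox9, Sox10 and Sox21) differed in the first comparison and 2 (Sox10 and Sox21) in the second. DESeq2 called 1 and 0 members, and limma-trend 1 and 2. Over all genes, 0.979% were called higher and 0.0524% lower in OHC-like cells, and 0.944% and 0.402% in nascent HCs. The members' median log2 fold change was -1.81 and -0.77, against 0.06 and 0.07 over all genes. Between OHC-like cells and nascent HCs 0 members were called, with 1 (Sox10) at an unadjusted p under 0.05 and 0 by DESeq2 and by limma-trend, against 0.0699% of all genes higher and 0.00874% lower. The 3 groups were set by hair cell genes and not by the members.

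Relative to failing SCs, OHC-like cells had log2 fold changes of -8.22 ± 2.17 for Sox10 (SE, edgeR adjusted p = 0.011), -4.62 ± 2.09 for Sox21 (edgeR adjusted p = 0.304), -3.19 ± 1.27 for Sox9 (edgeR adjusted p = 0.183) and -2.75 ± 1.45 for Sox2 (edgeR adjusted p = 0.474). DESeq2 called Sox10 lower (DESeq2 adjusted p = 3.48e-05) and limma-trend Sox9 (limma adjusted p = 2.16e-05). In nascent HCs Sox21 was at -6.23 ± 1.91 (SE, edgeR adjusted p = 0.0397), Sox10 at -3.16 ± 1.45 (edgeR adjusted p = 0.36), Sox2 at -1.60 ± 1.20 (edgeR adjusted p = 0.839) and Sox9 at -0.88 ± 1.02 (edgeR adjusted p = 0.981). Without nascent HCs 9 and 10, Sox10 was called lower (edgeR adjusted p = 3.72e-05). Prox1 was 2.57-fold higher in the mean, with a log2 fold change of 1.36 ± 1.31 (SE, edgeR adjusted p = 0.931), and limma-trend called it higher (log2 fold change 4.95, limma adjusted p = 0.000639) and Sox21 lower (-4.35, limma adjusted p = 0.000298).

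The blocks of library codes were unevenly shared by these groups. Failing SCs came 4 from block A, 10 from block C and 1 from block E, while block B held 5 OHC-like cells and 6 nascent HCs and block D 3 and 4. Prox1 was detected in every nascent HC of blocks A, B, C, D and E, and within block A it was at 59.4 CPM in the nascent HC and at 0.279 CPM or less in the 4 failing SCs. In block E the 4 nascent HCs ran from 10.6 to 79.4 CPM and the failing SC had 0. Block C was mixed. Its nascent HC had 3.75 CPM, 4 of 10 failing SCs had 39.1 to 139.9 CPM and the others 0.156 CPM or less. Of the 7 Sox10-detecting failing SCs, 6 were in block C, as was nascent HC 9. With block of library codes as a term in a fit of the 42 induced cells, 0 members were called in either comparison, and Prox1 in OHC-like cells relative to failing SCs moved from -0.87 to 7.87 on the log2 scale (edgeR adjusted p = 0.52).

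**Figure D4:**
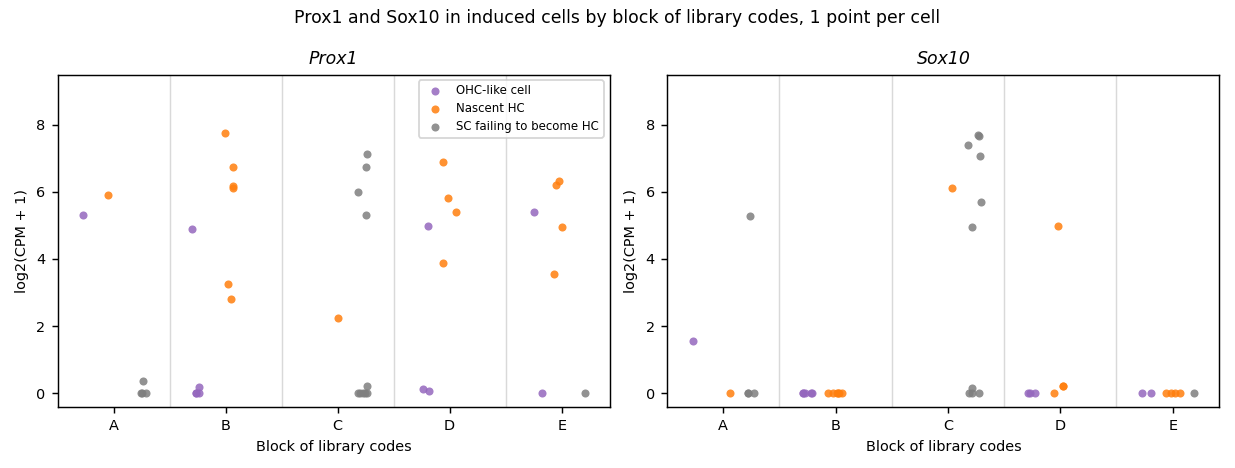
Levels of Prox1 (left) and Sox10 (right) in the 42 induced cells, log2(CPM + 1) on the vertical axis and block of library codes on the horizontal axis, 1 point per cell. Prox1 lies above 0 in the nascent HCs of all 5 blocks, and 6 of the 7 failing SCs with Sox10 are in block C.

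Members were also counted together in single cells. Sox2, Sox9 and Sox10 were all detected in 12 of 16 WT_P60 SCs, 6 of 15 failing SCs, 0 of 16 nascent HCs and 1 of 11 OHC-like cells. None of these 3 was detected in 17 WT_P30 OHCs, 5 OHC-like cells, 3 nascent HCs and 0 SCs of either kind. Where the trio was incomplete in nascent HCs, Sox2 and Sox9 were found together in 8 cells. With Sox21 and Prox1 added, 1 OHC-like cell, like all 17 WT_P30 OHCs, had none of the 5 genes. Sox4 and Sox10 were found together in 1 WT_P60 SC, while 14 had Sox10 alone, and 9 of 11 OHC-like cells had Sox4 without Sox10.

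Rank correlations over the 75 cells, which mix groups that differ in code block and depth and are a description, were highest between Sox2 and Sox9 (Spearman's rho 0.56), Sox9 and Sox21 (0.55) and Sox9 and Sox10 (0.51). The lowest was between Sox4 and Rorb (-0.56). Over the 42 induced cells alone, rho of Sox4 and Rorb was -0.42 and that of Sox2 and Sox9 0.32.

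**Figure D5:**
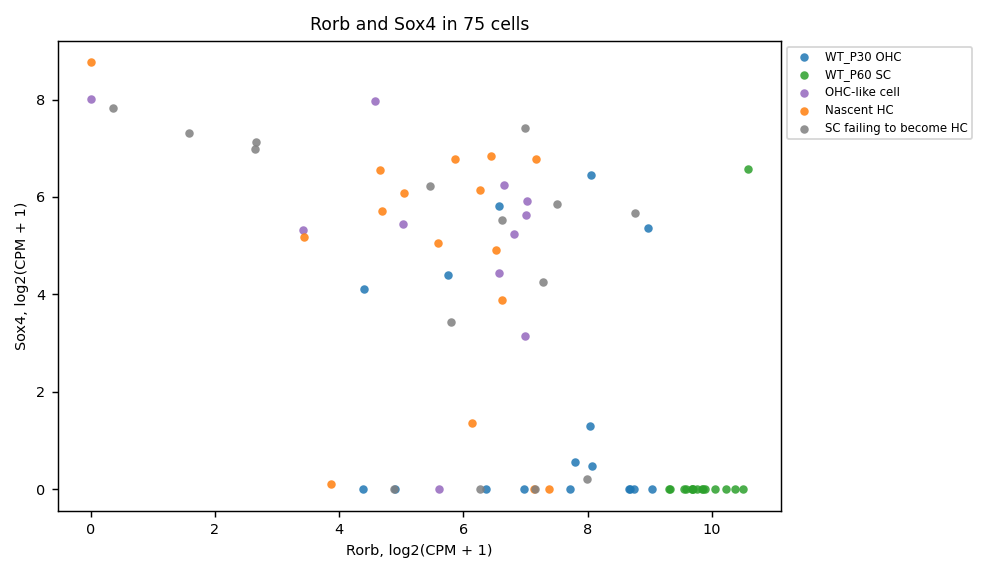
Rorb (horizontal axis) and Sox4 (vertical axis), both as log2(CPM + 1), in the 75 cells colored by group, 1 point per cell. The WT_P60 SCs lie at high Rorb with Sox4 at 0 except for cell 8, and the induced cells lie at lower Rorb, most of them with Sox4.

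For each member tested, the genes most alike in their levels over the 75 cells were taken by Spearman's rho among the 11443 genes tested. Sox2 went with Stx11 (0.70), Cyb5a (0.68) and Hmgn1 (0.66), Sox9 with Wls (0.76), Cnn3 (0.75) and Tmcc3 (0.725), and Sox10 with Car14 (0.81), Gprc5b (0.80) and Fam107a (0.80). Car14 was detected in 16 of 16 WT_P60 SCs, 1 of 11 OHC-like cells, 2 of 16 nascent HCs and 9 of 15 failing SCs. The genes most like Sox21 were Trio (0.625), Csrnp1 (0.58) and Hmgn1 (0.56). For Sox4 they were Ccdc88c (0.65), Krt7 (0.61) and Ikzf2 (0.60), of which Ikzf2 is also a transgene in the induced cells. Ccdc88c and Krt7 had 0 counts in WT_P60 SCs. Prox1 went with 4930506C21Rik (0.58), Fam210b (0.58) and Btbd17 (0.57), Rorb with Lcp1 (0.78), 6330411D24Rik (0.685) and Mtus2 (0.675), and Zbtb20 with Fmn1 (0.75), Bdh2 (0.72) and Kremen1 (0.71). Lcp1, an actin-bundling protein, averaged 1496 CPM in WT_P60 SCs, 389 in WT_P30 OHCs and 4.49 in nascent HCs.

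Relatives of the members were mostly low. Of 13 other Sox genes, 4 passed the filter and 0 were called in the 7 comparisons, where at an unadjusted p under 0.05 there were 0 to 3 per comparison, with DESeq2 0 or 1 called, and with limma-trend 0 to 2. In the comparison of failing SCs with WT_P30 OHCs, outside those 7, Sox6 was called higher (log2 fold change 7.20 ± 1.68, SE, edgeR adjusted p = 0.000396) and Sox12 lower (edgeR adjusted p = 0.000734). Sox12, a SoxC factor like Sox4 and Sox11, had 0 counts in the 15 failing SCs. The other groups held it in 3 of 17 WT_P30 OHCs, 2 of 16 WT_P60 SCs, 5 of 16 nascent HCs and 8 of 11 OHC-like cells. Its edgeR adjusted p in failing SCs was 0.00189 against WT_P60 SCs, 0.00165 against OHC-like cells and 0.00278 against nascent HCs, and DESeq2 called all 3 and limma-trend that against OHC-like cells. Sox7 and Sox17, known from endothelium, had 0 counts in all 75 cells, and Sox18 was detected in 1 OHC-like cell. Sox5, a SoxD factor, was detected in 11 WT_P60 SCs, 2 OHC-like cells, 1 nascent HC and 5 failing SCs, and Sox6 of the same subgroup in 11, 7, 8 and 12. Rora, the close relative of Rorb, averaged 490.1 CPM in WT_P60 SCs, 231 in WT_P30 OHCs and 159 to 273 in the induced groups, and was not called.

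Prox1os, the antisense transcript at the Prox1 start, was detected in 9 of 16 WT_P60 SCs, 0 of 11 OHC-like cells, 3 of 16 nascent HCs and 1 of 15 failing SCs, and was called lower in WT_P30 OHCs (edgeR adjusted p = 0.000121). Sox2ot was detected in 6, 0, 3 and 7 cells of these groups and was not called.

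Notch and Id genes, which act with Sox factors in keeping the SC state, were listed too. Of 14 tested, 6 were lower and 1, Heyl, was higher in WT_P30 OHCs than in WT_P60 SCs, against 10.3% of all genes lower and 4.96% higher. In OHC-like cells 4 were higher than in WT_P60 SCs, in nascent HCs 5 and in failing SCs 4, with 0 lower in each, where 5.77%, 6.31% and 3.38% of all genes were called higher. Heyl, a Notch effector, rose from 0 counts in WT_P60 SCs to means of 361, 392 and 692 CPM (edgeR adjusted p = 3.26e-09, 1.75e-09 and 1.62e-09). Id2 averaged 1397 CPM in WT_P60 SCs and 104 in WT_P30 OHCs (edgeR adjusted p = 2.72e-05), and Id1 74.1 and 1.93 CPM (edgeR adjusted p = 0.000245). In OHC-like cells 7 were higher than in WT_P30 OHCs, against 10.0% of all genes. Relative to failing SCs, 0 of 14 were called in OHC-like cells and 0 in nascent HCs, with 2 and 1 at an unadjusted p under 0.05, 0 and 0 by DESeq2, and 1 and 0 by limma-trend.

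Of 7 otic and prosensory regulators tested, Pax2 alone was called in any of the 7 comparisons. It was detected in 7 of 11 OHC-like cells and 9 of 16 nascent HCs and in none of the other 48 cells, and was called higher in those groups than in failing SCs (edgeR adjusted p = 0.000169 and 0.000299). Of 10 hair cell factors, relative to WT_P60 SCs, 7 were higher in OHC-like cells, 7 in nascent HCs and 5 in failing SCs, with 0 lower, against the same 5.77%, 6.31% and 3.38% of all genes, and the list holds Atoh1 and Ikzf2. Atoh1 averaged 5494, 4944 and 5464 CPM and Ikzf2 398, 314 and 635 CPM. Reads at these rows may come from the transgene or from the cell's own gene, and Ikzf2 also averaged 169 CPM in WT_P30 OHCs and was detected in 11 of 16 WT_P60 SCs. The failing SCs had these counts together with the highest group means of Sox2, Sox9 and Sox21.

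In the order of their means, neighbouring groups often could not be separated. For Sox2 and Sox9, failing SCs stood first (70.2 and 476 CPM) and WT_P30 OHCs last, and the step called was that from OHC-like cells down to WT_P30 OHCs. For Sox10 the order was WT_P60 SCs, failing SCs, nascent HCs, OHC-like cells and WT_P30 OHCs, and no step between neighbours was called. Nascent HCs stood first for Prox1 with 59.95 CPM, and the one step called was again the last. For Rorb, WT_P60 SCs stood first and WT_P30 OHCs next, ahead of all 3 induced groups, with no step called. For Sox4, the induced groups stood above both wild-type groups.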

How the data were processed

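SMART-Seq HT libraries of 75 hand-picked mouse cochlear cells were analysed, in 5 groups taken from the labels. According to the study's methods and the submitters' processing notes, FastQC 0.11.9 served for quality control and trimmomatic 0.39 for trimming, and reads were aligned to GRCm38 with Hisat2 2.1.0 and counted with HTSeq 0.10.0. The authors deposited raw counts per gene, without normalization and without molecular identifiers. The strand setting and the annotation release are not given in the sources used here. A vector element (WPRE) with 0.0254% of counts was left out.

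Counts were scaled by TMM, genes were filtered with filterByExpr (minimum count 10), and 11443 genes were fitted over all 5 groups with edgeR 4.0.16 (quasi-likelihood F-test, R 4.3.3). Calls required a Benjamini-Hochberg adjusted p below 0.001 with an absolute log2 fold change above 2. Standard errors were derived from that fit. Folds against a group at 0 used a floor of 3 counts per library. A fitted fold against such a group is no bound. Detection means 1 CPM or more, and intervals are exact binomial at 95%. TPM used GENCODE M21 exon lengths, and sequences came from GENCODE M21 transcripts. The fit was tested on simulated counts for WT_P30 OHCs against WT_P60 SCs: of 198 genes changed by 4 on the log2 scale among 11285, it called 16, and of 200 changed by 8 among 11302, it called 154, with 0 and 1 false calls. Alternatives used DESeq2 1.42.0, limma 3.58.1 (prior count 2), other scalings, no filter, covariates, thinning and left-out cells.

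The members, lists and tests were chosen with earlier results of these data known. Other genes were named by a rule: in each other list, at most 3 genes with the highest mean CPM in any group among those called in at least 1 of the 7 main comparisons, and the 3 genes of highest Spearman's rho with each member. Other genes with values outside these rules (Sox5, Sox6, Sox7, Sox12, Sox17, Sox18, Rora, Sox2ot and markers such as Erbb3, Pmel, Dcn and Lum) were chosen after their values were seen. The cell is the unit of each test, and replicate numbers do not pair cells. The result of 1 other listed gene is not reported here.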

Additional observations from a re-analysis of the deposited data

How the results depend on the processing

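Each count of members called was recomputed under the alternatives. Between the wild-type types, the 6 calls stayed within 1.5 times of that number in every setting. Set against WT_P60 SCs, OHC-like cells had 1 call that became 2 with DESeq2, with only the 2 groups, with thinning to the smallest total, at an adjusted p under 0.05 and log2 fold change over 1 and without WT_P60 SC 8, nascent HCs 9 and 10 or OHC-like cell 1, 3 with a replicate block and 4 with limma-trend. In nascent HCs, 1 became 2 at the looser threshold and with either set of cells left out, and 3 with limma-trend and with the replicate block. In failing SCs, 1 became 2 with the replicate block and without WT_P60 SC 8, and 3 with limma-trend. In OHC-like cells relative to WT_P30 OHCs, 4 became 2 with only the 2 groups, with genes detected as a covariate and with the replicate block, and 1 with limma-trend. DESeq2 called 6 there, and the looser threshold also added Sox10 and Zbtb20. Relative to failing SCs, 0 became 1 in OHC-like cells with DESeq2, limma-trend and the looser threshold, and in nascent HCs 1 at that threshold and without nascent HCs 9 and 10, and 2 with limma-trend. The 5 settings that left out named cells were chosen after seeing the data. Directions reversed for Sox9 in nascent HCs relative to WT_P60 SCs (-2.95 with limma-trend, -0.59 with the replicate block, and -0.17 to 0.78 with 1 cell left out, the former without nascent HC 13), Sox4 between the wild-type types (-0.41 with genes detected), Zbtb20 in nascent HCs relative to WT_P60 SCs (0.14 with genes detected) and Prox1. For Prox1 the values were -0.052 and 0.039 with genes detected in nascent HCs and failing SCs relative to WT_P60 SCs, -0.090 in nascent HCs relative to failing SCs, and 0.39 with limma-trend and 7.87 with the block of library codes in OHC-like cells relative to the latter. The cause was not tested. Other scalings moved the median of all genes by up to -0.25 on the log2 scale. Replicate numbers are shared only as names, so a call lost or gained with the replicate block says nothing on the size of an effect.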
